A study of Homo sapiens with 8 samples.

Results

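The classical cadherins and their catenins were followed here through 10 genes, taken by symbol from a deposited table of 60708 genes. They are the cadherin genes CDH1, CDH2, CDH3, CDH4, CDH6, CDH11 and CDH13 and the catenin genes CTNNA1, CTNNB1 and CTNND1, and each had 1 row in the table. The RNA came from HS578T, an established line of human breast cancer cells, and the 8 libraries form 4 groups of 2, which the series calls biological replicates. All cells received 25 µg of plasmid DNA, encoding either GFP (Mock) or the transcription factor HSF2 (HSF2oe). From 24 h after transfection they spent 24 h in assay medium without further addition (control) or with TGF-β1 at 10 ng/ml (TGF-β), which signals through SMAD transcription factors. The labels do not give the share of cells that took up plasmid, and bulk RNA does not tell fewer expressing cells from less RNA per cell. A treatment field in the labels lists DMSO for all Mock and TGFb1 for all HSF2oe libraries, against the titles and the design text. The groups follow the titles.

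Classical cadherins are calcium-dependent adhesion molecules that span the plasma membrane and bind cadherins of a neighbouring cell. Inside the cell their tails hold p120-catenin (CTNND1), which keeps the cadherin at the surface, and β-catenin (CTNNB1), which recruits α-catenin (CTNNA1) and through it the actin cytoskeleton. β-Catenin that is free of the junction can enter the nucleus and act with TCF transcription factors. T-cadherin (CDH13) is the atypical member: it is held by a lipid anchor, lacks the tail and does not bind catenins. In epithelial-mesenchymal transition, which TGF-β can drive, E-cadherin (CDH1) is typically lost and N-cadherin (CDH2) gained. HSF2 has been linked to cadherin expression in other human cells.

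Total counts ran from 17427645 to 34336107 per library, so that the 3 counts a count of 0 allows correspond to 0.0851 to 0.195 CPM (counts per megaread of the TMM-adjusted library total). HSF2 stood at 5.4 to 8.36 CPM in the Mock libraries and at 489 to 937 CPM in the HSF2oe libraries, plasmid and endogenous transcripts together. The source label calls the cells epithelial, but of 14 epithelial markers 11 stayed below 1 CPM in every library. EPCAM, GRHL2 and OVOL1 reached at most 0.128, 0.0749 and 0.031 CPM. The other 3, KRT18, KRT8 and CLDN4, were above 1 CPM in some library. KRT18 had group means of 190 to 271 CPM, KRT8 of 16.1 to 24.8 CPM and CLDN4 of 1.13 to 1.58 CPM. All 10 mesenchymal markers were at 19.8 CPM or more in every library. TMM factors moved with the treatment. With library totals alone in their place the median log2 change of all genes moved by -0.26 for TGF-β in Mock cells, by -0.16 for TGF-β in HSF2oe cells, by 0.09 for HSF2oe without TGF-β and by 0.19 with it. The 1172 higher and 1040 lower genes of TGF-β in Mock cells then became 608 and 3885, and the 1537 and 1912 of HSF2oe with TGF-β became 3526 and 1073. The 712 and 611 of TGF-β in HSF2oe cells became 452 and 1593, and the 781 and 1156 of HSF2oe without TGF-β became 1432 and 807.

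Levels between genes were compared as TPM, the count divided by exonic length and scaled to the same sum in each library. N-cadherin, the cadherin of mesenchymal and neural cells, was the most abundant cadherin, at 244 to 574 TPM. CTNNA1 lay at 221 to 271 TPM and CTNNB1 at 121 to 139 TPM. CDH11, the type II cadherin of osteoblasts and fibroblasts, was at 77.9 to 125 TPM and CDH13 at 64.6 to 78.9 TPM. CDH2 and CTNNA1 overlapped in range, as did CTNNB1 and CDH11, and CDH11 and CDH13, while CTNNA1 lay above CTNNB1 in every library. CDH6 (K-cadherin, first described in kidney) ran from 13.1 to 31.8 TPM and touched neither CDH13 above it nor CTNND1 below it. E-cadherin was at 0.181 to 0.709 TPM, which are 6 to 20 counts per library, and P-cadherin (CDH3) at 0.153 to 1.65 TPM. R-cadherin (CDH4) had 0 to 11 counts, was at 0 in Mock control 2 and HSF2oe control 2, and was the member that the filter on low counts removed, so 9 members were tested.

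CTNND1 was listed at 3.03 to 3.86 TPM, far below both other catenins. This level is uncertain: 39.1% of its exonic bases are also exons of the readthrough gene TMX2-CTNND1 (ENSG00000288534.1), and the counting command, per the file headers, carries no option that would assign reads lying in exons of more than 1 gene. TMX2-CTNND1 itself was given 0 to 13 counts per library. CDH13 shares 21.4% of its exonic bases with a long noncoding RNA on the opposite strand, which had 3 to 23 counts. The shares of the other members were 9.92% or less.

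**Figure D1:**
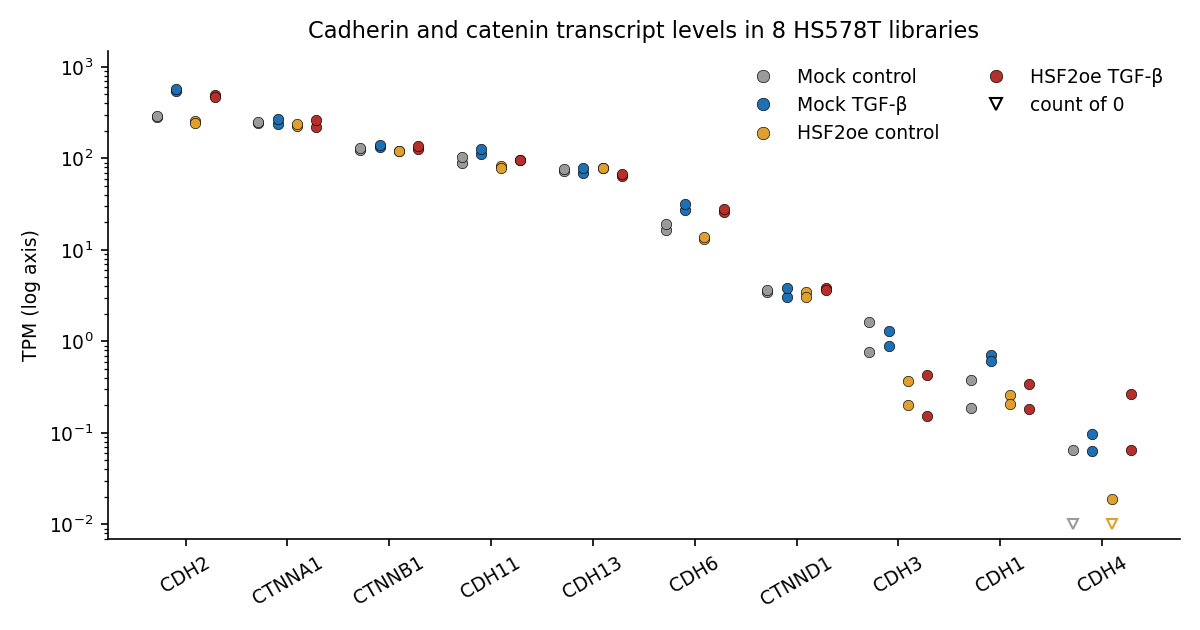
TPM (log axis) of the 10 members in each of the 8 libraries, ordered by median, with open triangles for a count of 0. CDH2 reached 574 TPM, while CDH1, CDH3 and CDH4 stayed at or below 1.65 TPM.

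The first question was how TGF-β moved these genes in GFP-transfected cells. CDH2, CDH6 and CDH11 rose, CTNNB1 rose slightly, and no member fell. That is 4 of the 9 members tested, where 7.32% of all 16008 genes tested rose and 6.50% fell and 13.8% passed in either direction. A pass is an adjusted p under 0.05 in the quasi-likelihood test of edgeR, adjusted by Benjamini-Hochberg over all genes, as for every adjusted p below. The median log2 change of the members tested was 0.32, beside -0.0044 over all genes.

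CDH2 (ENSG00000170558.10, GRCh38 chromosome 18, 27932879 to 28177946, minus strand) had 555 and 584 CPM in untreated Mock cells, against 1268 and 1315 CPM after TGF-β. HSF2oe cells gave 499 and 463 CPM untreated and 1086 and 933 CPM after TGF-β. All 4 TGF-β libraries were above all 4 control libraries. CDH2 rose 2.27-fold in Mock cells (log2 change 1.18 ± 0.11, ± standard error throughout, adjusted p = 1.39e-05) and 2.1-fold in HSF2oe cells (1.07 ± 0.11, adjusted p = 3.71e-05). Both calls held in all 15 alternatives, with log2 changes down to 0.92 and 0.91. Of the 10 members, 4 have an entry in the RefSeq promoter table (GRCh38.p14): CDH2, CDH4, CTNNA1 and CTNNB1. Stretches upstream of the first listed CDH2 start and of the CTNNB1 start are shown because these are the strongly induced cadherin and the catenin that binds its tail. CDH2 is at chr18:28177131-28177380, minus strand, and CTNNB1 at chr3:41199255-41199388, plus strand. Both lie within the span of their gene in the count table, outside its exons. They are written 5′ to 3′, and capitals mark the SMAD box CAGAC or its reverse complement GTCTG.
CDH2: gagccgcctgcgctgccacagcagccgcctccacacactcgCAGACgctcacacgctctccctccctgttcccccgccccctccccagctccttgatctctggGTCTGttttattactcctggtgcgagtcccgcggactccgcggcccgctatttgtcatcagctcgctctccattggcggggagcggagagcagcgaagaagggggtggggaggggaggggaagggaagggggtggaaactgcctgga
CTNNB1: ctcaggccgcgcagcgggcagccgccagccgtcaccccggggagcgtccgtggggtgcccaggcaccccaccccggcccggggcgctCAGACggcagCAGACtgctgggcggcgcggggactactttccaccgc
Each stretch holds 2 SMAD boxes, on either strand, and 38% of all 35116 windows of 250 bases before a start hold at least 1. The share holding 2 or more was not counted. Windows before the other listed starts hold 1 box for CDH2, 0 and 2 for CDH4, and 1, 0, 0 and 0 for CTNNA1. The CTNNB1 stretch is shorter than these windows, at 134 bases, and does not reach the start: the bases between lie in an exon of the count table and are not shown. The E-box CACCTG (reverse CAGGTG), bound by Snail and ZEB repressors, and the heat shock half-site pairs GAANNTTC and TTCNNGAA, which both read the same on either strand, are absent from these letters. They occur in 17.5%, 5.78% and 6.62% of the windows. A match is a description of the letters and not a measured binding site.

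CDH6 (ENSG00000113361.13, chromosome 5, 31193686 to 31329146, plus strand) had 47.8 and 55.7 CPM in untreated Mock cells, against 92.1 and 106 CPM after TGF-β. HSF2oe cells gave 36.4 and 38.1 CPM untreated and 82.6 and 80.0 CPM after TGF-β. All 4 TGF-β libraries lay above all 4 control libraries here too. CDH6 rose by 0.93 ± 0.11 on the log2 scale in Mock cells (adjusted p = 7.48e-05) and by 1.13 ± 0.11 in HSF2oe cells (adjusted p = 2.84e-05), and both calls held in all 15 alternatives. The lowest log2 change, with library totals alone, was 0.67 in Mock cells.

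CDH11 (ENSG00000140937.14, chromosome 16, 64943753 to 65126112, minus strand) had 274 and 319.5 CPM in untreated Mock cells, against 399.9 and 445 CPM after TGF-β. HSF2oe cells gave 247 and 229 CPM untreated and 325 and 296 CPM after TGF-β. The groups did not overlap within either transfection, although HSF2oe TGF-β 2 lay below Mock control 2. CDH11 rose 1.42-fold in Mock cells (log2 change 0.51 ± 0.11, adjusted p = 0.00651) and 1.31-fold in HSF2oe cells (0.38 ± 0.11, adjusted p = 0.045). The Mock call was lost with library totals alone (0.25, adjusted p = 0.0933), without Mock control 1 (adjusted p = 0.102) and without Mock TGF-β 2 (adjusted p = 0.081). The HSF2oe call was lost with library totals alone (0.22, adjusted p = 0.19) and without any one of the 4 HSF2oe libraries or the 2 Mock TGF-β libraries (adjusted p = 0.0509 to 0.247).

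CTNNB1 (ENSG00000168036.18, chromosome 3, 41194741 to 41260096, plus strand) had 338 and 354 CPM in untreated Mock cells, against 425 and 438 CPM after TGF-β. HSF2oe cells gave 319 and 315 CPM untreated and 377 and 371 CPM after TGF-β. The TGF-β libraries were again the higher ones in both transfections. CTNNB1 rose by 0.32 ± 0.09 in Mock cells (adjusted p = 0.0326), a call that was lost without any one of the 4 Mock libraries (adjusted p = 0.0972 to 0.231), without the filter on low counts (adjusted p = 0.0553) and with library totals alone, where the log2 change was 0.06 (adjusted p = 0.68). In HSF2oe cells its log2 change was 0.24 ± 0.09 (adjusted p = 0.15). CTNNA1 (ENSG00000044115.21, chromosome 5, 138610967 to 138935034, plus strand) ran from 442 CPM in HSF2oe control 1 to 639 CPM in Mock TGF-β 2, and its TGF-β and control groups did not overlap within either transfection. It had 0.26 ± 0.10 in Mock and 0.18 ± 0.10 in HSF2oe cells and passed in neither (adjusted p = 0.109 and 0.353). CTNND1, with the uncertain counts given above, had 0.19 ± 0.15 and 0.33 ± 0.14 (adjusted p = 0.48 and 0.218).

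CDH1 had 0.262 and 0.539 CPM in untreated Mock cells against 1.17 and 0.984 CPM after TGF-β, and 0.353 and 0.279 CPM in untreated HSF2oe cells against 0.529 and 0.256 CPM after it. The 2 Mock TGF-β libraries were the highest of all 8, on 18 and 20 counts, while the deeper Mock control 2 had 19 counts. Its log2 changes with TGF-β, 1.38 ± 0.57 and 0.35 ± 0.61, did not pass (adjusted p = 0.141 and 0.826). For CDH3 the log2 changes were 0.08 ± 0.47 and 0.05 ± 0.63 (adjusted p = 0.947 and 0.978), and for CDH13 they were 0.21 ± 0.10 and -0.11 ± 0.10 (adjusted p = 0.182 and 0.581). In HSF2oe cells 3 of 9 members rose, CDH2, CDH6 and CDH11, where 4.45% of all genes rose and 3.82% fell (8.26% in either direction). The members' median log2 change there was 0.33, beside -0.0092 over all genes.

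**Figure D2:**
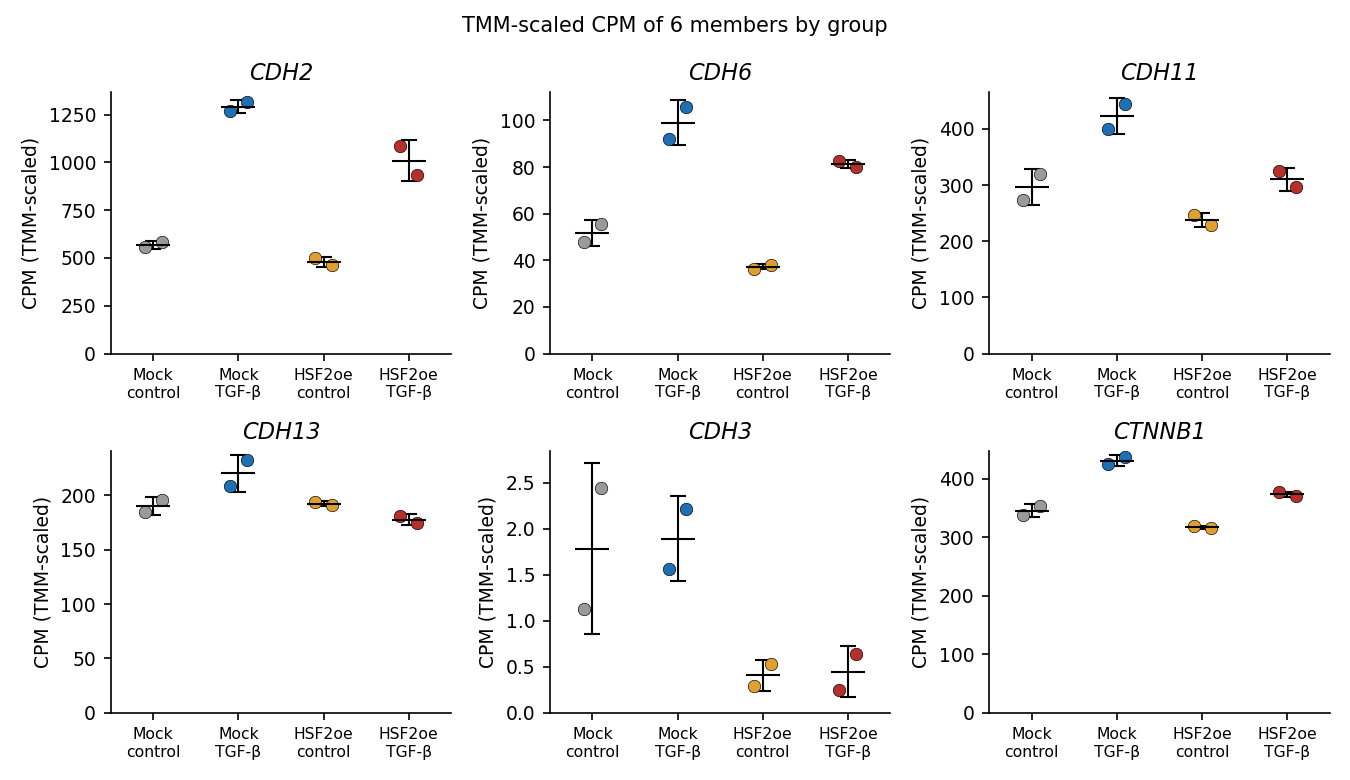
CPM (TMM-scaled, axes from 0) of 6 members in the 4 groups, with 1 point per library and bars for the mean ± SD of 2 libraries. CDH2 went from 569 ± 20.2 to 1292 ± 33.1 CPM in Mock cells, while CDH3 went from 1.78 ± 0.93 CPM in Mock control to 0.408 ± 0.168 CPM in HSF2oe control.

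Ratios within a library do not depend on how libraries are scaled against each other. The level of CDH2 over that of CTNNB1, in TPM, was 2.25 and 2.26 in untreated Mock cells against 4.09 and 4.11 after TGF-β, and 2.14 and 2.01 in untreated HSF2oe cells against 3.95 and 3.45 after it. Relative to β-catenin, N-cadherin transcripts were thus higher in every TGF-β library than in any control library. CDH11 over CTNNB1 was 0.719 and 0.8004 in untreated Mock cells against 0.834 and 0.900 after TGF-β, and 0.685 and 0.642 in untreated HSF2oe cells against 0.762 and 0.707 after it. Here the TGF-β libraries were higher within each transfection, but HSF2oe TGF-β 2 lay below Mock control 1. CDH13 over CTNNB1 was 0.583 and 0.591 in untreated Mock cells against 0.523 and 0.566 after TGF-β, and 0.649 and 0.645 in untreated HSF2oe cells against 0.513 and 0.5004 after it, so it was lower with TGF-β in both.

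The 7 cadherins together made 461 and 495 TPM in untreated Mock cells against 752 and 812 TPM after TGF-β, and 434 and 414 TPM in untreated HSF2oe cells against 684 and 661 TPM after it. CDH2 made up 60.9% and 59.2% of that sum in untreated Mock cells against 72.2% and 70.7% after TGF-β, and 59.7% and 58.8% in untreated HSF2oe cells against 72.6% and 70.9% after it. The N-cadherin share was larger in every TGF-β library than in any control library, and the Mock and HSF2oe ranges overlapped under either condition. The share of CDH13 was 15.8% and 15.5% in untreated Mock cells against 9.23% and 9.72% after TGF-β, and 18.1% and 18.9% in untreated HSF2oe cells against 9.44% and 10.3% after it. Mean CDH13 levels were 74.6 TPM in Mock control and 74.1 TPM in Mock TGF-β, and 78.4 and 66.3 TPM in HSF2oe cells. The share of CDH11, which rose in CPM, was smaller with TGF-β too. It was 18.8% to 21.0% in the control libraries and 14.0% to 15.5% in the TGF-β libraries. The 3 catenins summed to 348 to 414 TPM over the 8 libraries, and the TGF-β and control groups overlapped within each transfection. CTNND1, with its uncertain counts, entered that sum at only 3.03 to 3.86 TPM. These sums and shares were not tested.

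**Figure D3:**
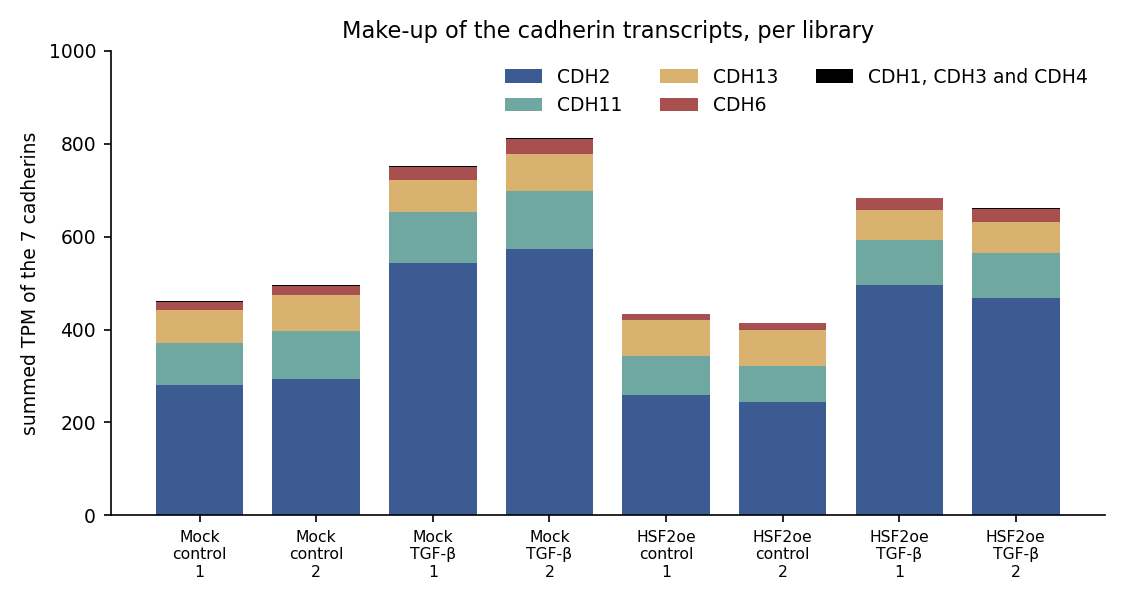
Stacked bars of the summed TPM of the 7 cadherins in each library. The CDH2 part is 58.8% to 60.9% in the control libraries and 70.7% to 72.6% in the TGF-β libraries.

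The second question was what HSF2 overexpression did to the same genes. Without TGF-β, CDH3 and CDH6 were lower in HSF2oe than in Mock cells, and no member was higher. That is 2 of 9, where 7.22% of all genes were lower and 4.88% higher (12.1% in either direction). The members' median log2 change was -0.24, beside -0.0023 over all genes. With TGF-β, CDH2, CDH3, CDH11 and CDH13 were lower, 4 of 9, where 11.9% of all genes were lower and 9.60% higher (21.5% in either direction). The median was then -0.31, beside -0.0032 over all genes. The comparisons that share a group of libraries are not independent of each other.

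CDH3 (ENSG00000062038.15, chromosome 16, 68636189 to 68727468, plus strand), the P-cadherin of basal epithelia, had 1.12 and 2.44 CPM in untreated Mock cells, against 1.56 and 2.21 CPM after TGF-β. HSF2oe cells gave 0.289 and 0.527 CPM untreated and 0.249 and 0.639 CPM after TGF-β. All 4 HSF2oe libraries lay below all 4 Mock libraries, on 8 to 17 counts against 24 to 86. CDH3 was 4.37-fold lower in HSF2oe than in Mock cells without TGF-β (log2 change -2.13 ± 0.53, adjusted p = 0.0198). With TGF-β in both, it was 4.44-fold lower in HSF2oe cells (-2.15 ± 0.56, adjusted p = 0.0152). The first call was lost without Mock control 2 (-1.45, adjusted p = 0.253) and without HSF2oe control 1 (adjusted p = 0.178), the second without Mock TGF-β 2 (adjusted p = 0.115) and without HSF2oe TGF-β 1 (adjusted p = 0.138).

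CDH6 was 1.39-fold lower in HSF2oe control than in Mock control (log2 change -0.48 ± 0.11, adjusted p = 0.0133), and the groups did not overlap. The call was lost without Mock control 2 (-0.36, adjusted p = 0.157) and without HSF2oe control 1 (adjusted p = 0.128). With TGF-β the CDH6 difference was -0.28 ± 0.11 (adjusted p = 0.0741). With TGF-β in both, CDH2 was 1.28-fold lower in HSF2oe than in Mock cells (-0.36 ± 0.11, adjusted p = 0.0301). That call was lost with library totals alone (-0.16, adjusted p = 0.261) and with only the libraries compared (adjusted p = 0.07). It was also lost without either Mock TGF-β library and without HSF2oe TGF-β 2 (-0.24). Without TGF-β the CDH2 difference was -0.24 ± 0.11 (adjusted p = 0.156).

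With TGF-β in both, CDH11 was 1.36-fold lower in HSF2oe than in Mock cells (-0.45 ± 0.11, adjusted p = 0.0113). That call was lost with library totals alone (-0.25, adjusted p = 0.0868), without Mock TGF-β 2 and without HSF2oe TGF-β 2. Without TGF-β the CDH11 difference was -0.32 ± 0.11 (adjusted p = 0.0715). CDH13 (ENSG00000140945.17, chromosome 16, 82626965 to 83800640, plus strand) had 185 and 196 CPM in untreated Mock cells, against 208 and 232 CPM after TGF-β. HSF2oe cells gave 194 and 191 CPM untreated and 181 and 174 CPM after TGF-β. Its groups overlapped without TGF-β (0.02 ± 0.10, adjusted p = 0.937) and were apart with it, where it was lower in HSF2oe cells (-0.31 ± 0.10, adjusted p = 0.0345). That call was lost in 10 of 15 alternatives: with library totals alone (-0.12, adjusted p = 0.402), without the filter on low counts, with only the libraries compared, and without each library but Mock TGF-β 1.

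The catenins did not pass in either HSF2 comparison. CTNNA1 had -0.15 ± 0.10 without and -0.23 ± 0.10 with TGF-β (adjusted p = 0.382 and 0.124), CTNNB1 -0.12 ± 0.09 and -0.21 ± 0.09 (adjusted p = 0.415 and 0.127) and CTNND1 -0.19 ± 0.14 and -0.05 ± 0.15 (adjusted p = 0.42 and 0.842). CDH1 had -0.37 ± 0.61 and -1.40 ± 0.57 (adjusted p = 0.74 and 0.101). Of the 10 mesenchymal markers 6 were lower in HSF2oe cells in both comparisons and none was higher, or 6 lower and 1 higher with TGF-β under library totals alone. The share of all genes lower in HSF2oe cells was 7.22% without and 11.9% with TGF-β. Without TGF-β the summed level of the 10 mesenchymal markers was 61986 and 73542 CPM in Mock cells and 50746 and 50724 CPM in HSF2oe cells. With TGF-β it was 115087 and 129291 CPM in Mock cells and 80640.2 and 76759 CPM in HSF2oe cells. The 6 were COL1A1, COL1A2, COL3A1, SPARC, THY1 and PDGFRB, while VIM was at 0.21 ± 0.11 and 0.22 ± 0.11 and did not pass. The COL1A2 call without TGF-β and both THY1 calls were lost without some single libraries. FN1, the marker with the highest CPM, did not pass either (-0.10 and -0.40, adjusted p = 0.692 and 0.0541), nor did FAP and S100A4. Of the 3 epithelial markers tested, none passed between HSF2oe and Mock cells without TGF-β. With TGF-β in both, KRT18 (-0.52 ± 0.11, adjusted p = 0.00534) and KRT8 (-0.41 ± 0.13, adjusted p = 0.0332) were lower in HSF2oe cells. Both calls were lost with library totals alone (adjusted p = 0.053 and 0.223) and without some single libraries. The part of either marker list in the cadherin differences was not tested.

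**Figure D4:**
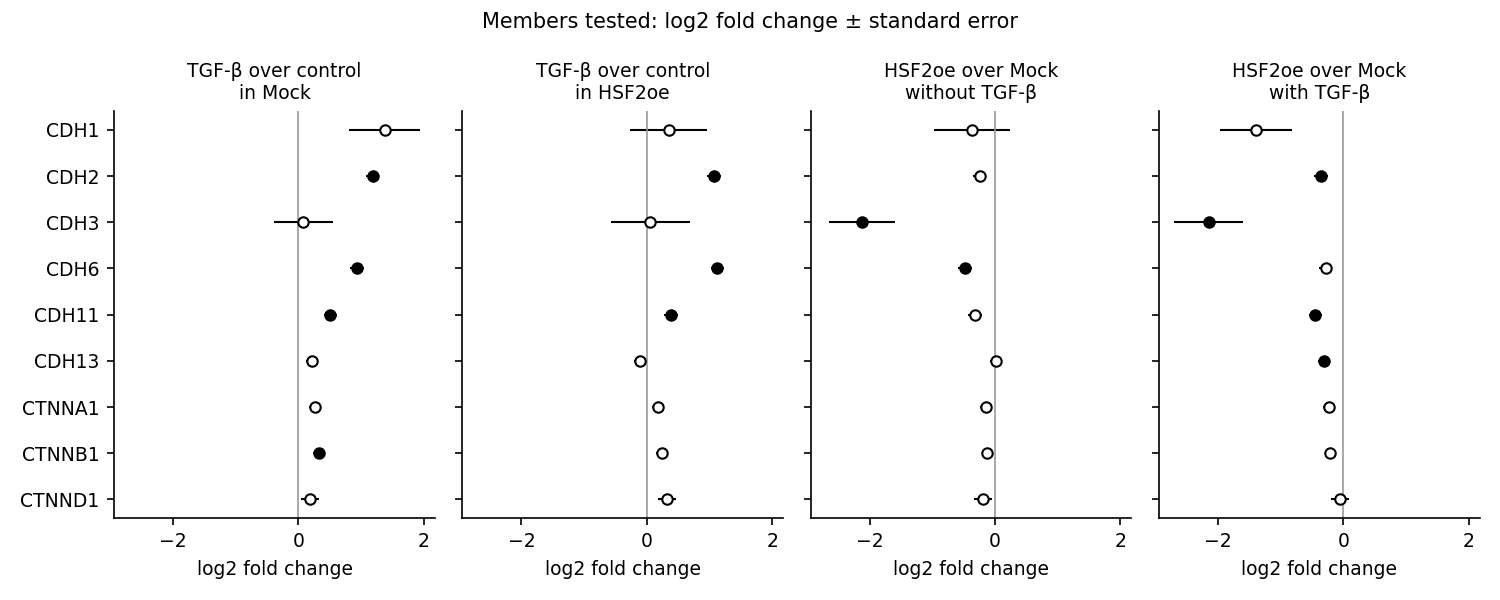
Log2 fold change ± standard error of the 9 members tested in the 4 comparisons, with filled points for an adjusted p under 0.05. With TGF-β the filled points lie to the right of 0, and with HSF2oe they lie to the left.

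The third question was whether HSF2 changed the TGF-β response. No member passed the test of the difference of both TGF-β effects, where 0.00% of all genes passed (0 of 16008 by edgeR, with 977 at an unadjusted p under 0.05, 25 by DESeq2 and 0 by limma-trend). The difference, HSF2oe minus Mock, was -0.11 ± 0.15 for CDH2, 0.19 ± 0.15 for CDH6, -0.12 ± 0.15 for CDH11 and -0.08 ± 0.13 for CTNNB1 (adjusted p = 0.945, 0.896, 0.942 and 0.954). CDH13 had the smallest p of the members (unadjusted 0.031, adjusted p = 0.805), with a difference of -0.33 ± 0.13. A missed threshold with 2 libraries a group does not show that the responses are equal.

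Around the members, 12 other classical cadherins were at low levels. CDH7, CDH9, CDH19 and CDH22 had no count in any library, CDH5, the endothelial cadherin, reached at most 0.246 CPM, and 8 of the 12 stayed below 1 CPM throughout. The highest were CDH18, at 4.99 to 13.3 CPM, and CDH24, at 6.78 to 12.6 CPM. CDH18 fell with TGF-β in Mock cells (-0.83 ± 0.16, adjusted p = 0.0037) and was lower in HSF2oe than in Mock control (-0.71 ± 0.15, adjusted p = 0.0111), so 1 of the 6 tested was lower in the first comparison and 2 in the second, with CDH15 (2 and 1 under library totals alone). The CDH18 call of the second comparison was lost without some single libraries. That of CDH15 (-1.07, adjusted p = 0.0465) was lost without most of them, on means of 1.87 CPM in Mock control and 0.886 CPM in HSF2oe control. Among all genes 6.50% fell in the first comparison and 7.22% were lower in the second. With TGF-β in HSF2oe cells CDH15 rose (1.25, adjusted p = 0.0285), a call lost without some single libraries. The CDH18 change there did not pass (-0.56, adjusted p = 0.0549). Under library totals alone 1 of the 6 rose and 2 fell in that comparison.

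Of the catenin relatives and junction partners, 8 of 22 tested rose and 4 fell with TGF-β in Mock cells, or 3 and 5 under library totals alone. The median was 0.12. In HSF2oe cells 4 rose and 3 fell, or 4 and 4. The shares of all genes that rose and fell were 7.32% and 6.50% in Mock cells and 4.45% and 3.82% in HSF2oe cells. PVR and NECTIN1 are adhesion receptors of the nectin family, and LIMA1 (EPLIN) and ACTN1 (α-actinin) bind actin at junctions. PVR rose by 0.81 ± 0.10 in Mock and 0.67 ± 0.10 in HSF2oe cells, and other genes share 35.2% of its exonic bases, while NECTIN1 fell by 0.81 ± 0.11 and 0.84 ± 0.11. LIMA1 rose by 0.67 ± 0.10 and 0.66 ± 0.10, and ACTN1 by 0.73 ± 0.10 and 0.60 ± 0.10. These 8 calls held without each library. In HSF2oe cells with TGF-β 7 of the 22 were lower than in Mock and 1 higher (3 and 2 under library totals alone), and without TGF-β 2 were lower and 2 higher (0 and 2). Among all genes, 11.9% were lower and 9.60% higher in the first of these comparisons, and 7.22% and 4.88% in the second. Plakoglobin (JUP), the closest relative of β-catenin, was lower in HSF2oe than in Mock cells without TGF-β (-0.46 ± 0.13, adjusted p = 0.0315). That call was lost without some single libraries and with library totals alone (adjusted p = 0.0722). With TGF-β in both, JUP was lower in HSF2oe cells too (-0.88 ± 0.13, adjusted p = 5.66e-04). So was vinculin (VCL), which strengthens the α-catenin link to actin (-0.55 ± 0.11, adjusted p = 0.00268). Between TGF-β and control, both were higher with TGF-β in Mock cells (JUP 0.43, adjusted p = 0.0349, and VCL 0.35, adjusted p = 0.0438). These 2 calls were lost without some single libraries, and in HSF2oe cells neither gene passed (adjusted p = 0.962 and 0.665).

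Of the genes for cadherin cleavage and turnover, 1 of 12 rose and 1 fell with TGF-β in Mock cells (1 and 5 under library totals alone). There 7.32% of all genes rose and 6.50% fell. FURIN, the convertase that removes cadherin propeptides, rose by 0.82 ± 0.09 in Mock and 0.68 ± 0.09 in HSF2oe cells (adjusted p = 6.03e-05 and 3.78e-04). ADAM10, which sheds the outer part of E- and N-cadherin, was lower in HSF2oe than in Mock cells with TGF-β (-0.55 ± 0.10, adjusted p = 0.00184). The ubiquitin ligase gene CBLL1 (Hakai), named for E-cadherin internalisation, was higher there (0.60 ± 0.10, adjusted p = 0.00149). These 4 calls held without each library. Without TGF-β, ADAM10 was also lower in HSF2oe than in Mock cells (-0.34, adjusted p = 0.0384) and CBLL1 higher (0.33, adjusted p = 0.0451). Both of the latter calls were lost without some single libraries, and that of ADAM10 also with library totals alone.

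Of the genes of the β-catenin destruction complex and its TCF partners, 1 of 14 rose and 1 fell with TGF-β in Mock cells (0 and 4 under library totals alone). None passed in HSF2oe cells (1 fell under library totals alone), and the median in Mock cells was 0.06. Shares over all genes were 7.32% higher and 6.50% lower in Mock cells, and 4.45% and 3.82% in HSF2oe cells. TLE1, a TCF corepressor, fell in Mock cells (-0.81 ± 0.13, adjusted p = 7.21e-04) and was higher in HSF2oe than in Mock cells with TGF-β (0.90 ± 0.13, adjusted p = 4.13e-04). TCF7L1, a TCF gene, was lower in HSF2oe cells without TGF-β (-0.88, adjusted p = 0.00285) and with it (-0.65, adjusted p = 0.008). The latter ran from -0.87 to -0.43 without single libraries. Without TGF-β, 1 of the 14 was lower and 0 higher (7.22% and 4.88% of all genes). With TGF-β, 1 was lower and 2 higher (11.9% and 9.60%), or 1 and 5 under library totals alone. Of the β-catenin-TCF target genes, 2 of 10 rose and 4 fell in Mock cells (1 and 5 under library totals alone), and 1 rose and 4 fell in HSF2oe cells (1 and 5). The medians were -0.50 and -0.57, beside -0.0044 and -0.0092 over all genes. LGR5 fell by 1.40 ± 0.25 and 1.71 ± 0.28. RNF43, which has 69.0% of its exonic bases in other genes too, fell by 1.85 ± 0.40 and 2.7 ± 0.46, and the first call was lost without Mock control 2. RNF43 levels were low, with means of 2.22 CPM in Mock control and 0.605 CPM in Mock TGF-β. In HSF2oe cells they were 1.31 CPM in control and 0.200 CPM with TGF-β. LEF1, in contrast, rose by 0.58 ± 0.12 and 0.58 ± 0.11. The LEF1 calls were lost without Mock control 1 (adjusted p = 0.0574) and without HSF2oe control 2 (adjusted p = 0.0672), and the first also with library totals alone (adjusted p = 0.067). NKD1, a feedback inhibitor, rose in Mock cells (1.46 ± 0.28, adjusted p = 0.00309) and was lower in HSF2oe than in Mock cells with TGF-β (-1.70 ± 0.29, adjusted p = 0.00136). In that comparison 5 of the 10 targets were lower and 1 higher (3 and 2 under library totals alone), where 11.9% of all genes were lower and 9.60% higher.

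Of the 6 E-cadherin repressors, 3 rose and 3 fell with TGF-β in Mock cells (2 and 3 under library totals alone), and 2 rose and 2 fell in HSF2oe cells. Among all genes 7.32% rose and 6.50% fell in Mock cells, and 4.45% and 3.82% in HSF2oe cells. SNAI1 (Snail) had the smallest p of the list and rose by 2.49 ± 0.33 in Mock and 2.50 ± 0.36 in HSF2oe cells (adjusted p = 2.12e-04 and 6.17e-04). Its mean levels were low, at 0.702 CPM in Mock control and 3.97 CPM in Mock TGF-β. The means in HSF2oe cells were 0.410 CPM in control and 2.34 CPM with TGF-β. In Mock cells ZEB1 rose by 0.60 ± 0.11, ZEB2 fell by 0.53 ± 0.10 and TWIST1 fell by 0.83 ± 0.13 (adjusted p = 0.00186, 0.00299 and 6.64e-04). These 5 calls held without each library. The others called in Mock cells were SNAI2, at 0.48 ± 0.12 (adjusted p = 0.0178, or 0.193 with library totals alone), and TWIST2, at -0.47 ± 0.14 (adjusted p = 0.0407), and both were lost without some single libraries, up to adjusted p = 0.174 and 0.287. In HSF2oe cells SNAI2 rose by 0.56 ± 0.12, and TWIST1 and ZEB2 fell by 0.55 ± 0.12 and 0.42 ± 0.10 (adjusted p = 0.0114, 0.0125 and 0.0168), with adjusted p up to 0.141, 0.134 and 0.179 without single libraries.

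**Figure D5:**
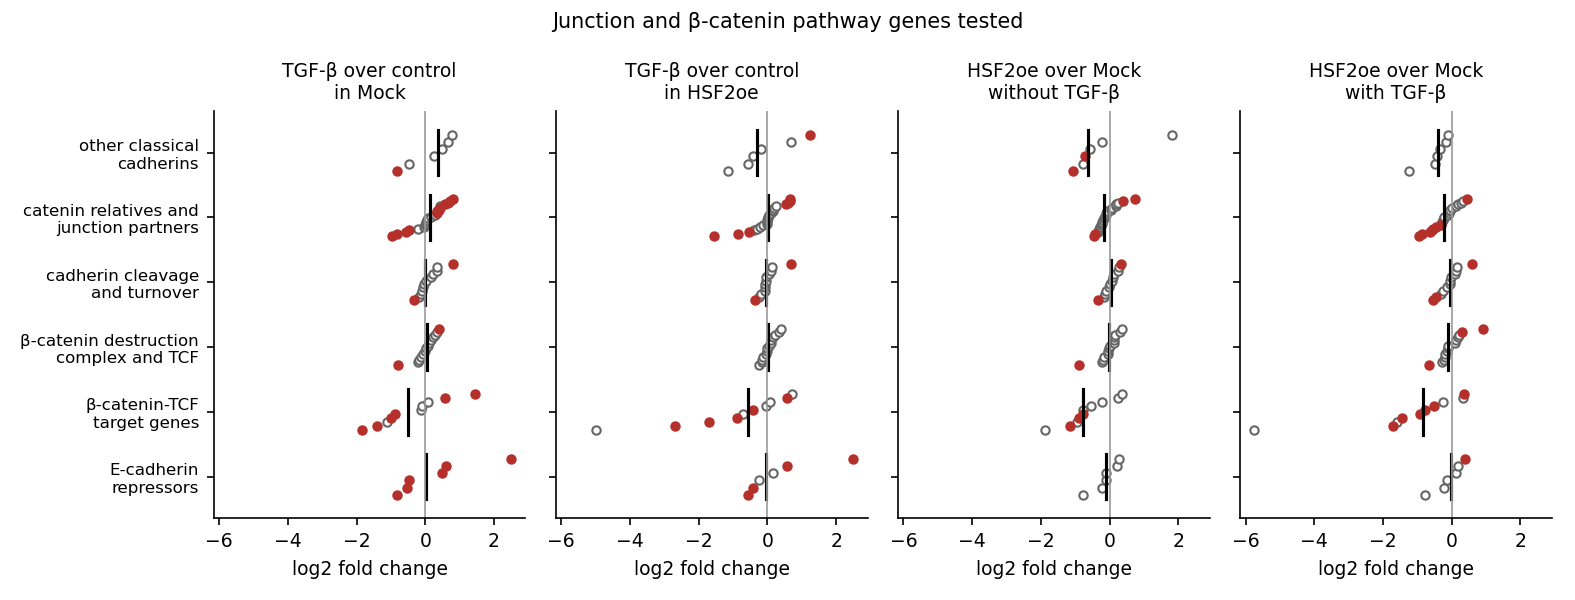
Log2 fold change of each tested gene of 6 lists in the 4 comparisons, with red points for an adjusted p under 0.05 and a black bar at the list's median. Among the β-catenin-TCF target genes the bars for TGF-β lie at -0.50 and -0.57. The leftmost open points of that row in both panels that involve HSF2oe with TGF-β are NKD2, which had no count in HSF2oe TGF-β libraries, so its fitted value there is no measured size.

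The genes with profiles closest to a member were sought over the 8 libraries among 12894 protein-coding genes, by the Euclidean distance between log2 CPM values centred on their mean. For CDH2 these were the protocadherin gene PCDH1 (distance 0.197), the integrin gene ITGB3 (0.265) and ITGA5 (0.269), the α chain of the fibronectin receptor. The median distance from CDH2 was 1.78. PCDH1 reached 3.94 CPM at most, and 35.7% of the exonic bases of ITGB3 belong to other genes too. For CDH6 the closest were RNF150 (0.304), the gelatinase gene MMP2 (0.322) and the vitamin D receptor gene VDR (0.330), against a median of 1.70. For CDH11 they were the endoplasmic reticulum chaperone genes HSP90B1 (0.130) and PDIA4 (0.153) and the amino acid transporter gene SLC38A1 (0.158), against 1.08. For CTNNB1 they were SLC30A5 (0.0789), SRPRA (0.124) and ATG9A (0.126, with 38.8% of its exonic bases in other genes too), against 0.785. All libraries and their scaling are shared by the genes compared, and the distances were not tested.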

How the data were processed

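Polyadenylated RNA of 8 HS578T libraries was sequenced. The authors deposited gene counts made with featureCounts 2.0.1 on read pairs against GENCODE release 38, per the file headers, and the recorded command sets no strandedness despite the stranded kit in the labels, so sense and antisense reads were not told apart. Per the submitters' processing notes, STAR 2.7.9a, Subread 2.0.1, edgeR 3.34.1 and GRCh38 were used. A deposited table of log2 CPM holds 13169 genes, 7 of the members among them, and served for an alternative only.

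The count test was edgeR 4.0.16 (R 4.3.3). Its filterByExpr function, given the groups, left 16008 genes, and TMM set the scaling. All 8 libraries entered 1 quasi-likelihood fit whose coefficients were the group means (4 residual and 9.21 prior degrees of freedom). The 2-sided p-values were adjusted by Benjamini-Hochberg over these genes, with 0.05 as the threshold. For each standard error, the size of the log2 change was divided by the root of F. CDH3 and CDH1 passed the filter on few counts, so their changes are less certain. Gene positions and shared exonic bases, on either strand, come from the count table. Limits that a count of 0 allows use 3 counts and cover counting error only.

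The members and lists were chosen with earlier results of these data known. The text names all members, from each list at most 4 genes with the smallest p per factor (others where a count of 5 or fewer was spelled out, chosen after their values were seen), and the 3 closest profiles of CDH2, CDH6, CDH11 and CTNNB1. Alternatives were library totals alone, DESeq2 size factors, DESeq2 1.42.0, no filter, only the libraries compared, a replicate block, limma-trend (limma 3.58.1) on the deposited log2 CPM, and each library left out in turn.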

Additional observations from a re-analysis of the deposited data

How the results depend on the processing

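The 4 members called for TGF-β in Mock cells became 2 with library totals alone and 2 to 4 when single libraries were left out, and the 3 for TGF-β in HSF2oe cells 2 to 3. The 2 lower members without TGF-β became 1 by limma-trend on the deposited values, which do not hold CDH3, and 0 to 2 without single libraries (0 without Mock control 2 or HSF2oe control 1). The 4 lower with TGF-β became 1 with library totals alone, 2 with only the libraries compared and 0 to 3 without single libraries (0 without Mock TGF-β 2, 1 without HSF2oe TGF-β 2, 2 without HSF2oe TGF-β 1). For the other changes the cause was not tested. Leaving out a library also leaves a group with 1 sample, which is assumed to vary like the others. Replicate numbers are shared between groups, but the labels do not say that they pair the samples, and deviations of same-numbered libraries correlated at 0.0498 to 0.163 (6 pairs of groups). With a replicate block the lower members became 4 without TGF-β (CDH2 and CDH11 added) and 7 with it (CDH6, CTNNA1 and CTNNB1 added, at adjusted p = 0.017, 0.0311 and 0.0441), CTNNA1 was also called for TGF-β in Mock cells and CTNNB1 for TGF-β in HSF2oe cells, and calls over all genes went from 2212 to 3350 and 1323 to 2366 for TGF-β in Mock and HSF2oe cells, 1937 to 3614 and 3449 to 4900 for HSF2oe without and with TGF-β, and 0 to 78 for the difference. Called members kept their sign in every alternative. Some uncalled values changed sign. With library totals alone TGF-β in Mock cells gave -0.18 for CDH3, -0.051 for CDH13, -3.2e-04 for CTNNA1 and -0.075 for CTNND1, TGF-β in HSF2oe cells gave -0.10 for CDH3, HSF2oe with TGF-β gave 0.14 for CTNND1, and the difference of TGF-β effects gave 0.078 for CDH3, 0.020 for CTNNA1 and 0.019 for CTNNB1. The CDH3 difference was 0.0038 by DESeq2 and 0.0020 without a filter. Without single libraries, values ran from -0.37 to 0.75 (CDH3) for TGF-β in Mock cells, -0.29 to 0.74 (CDH1) and -0.71 to 0.65 (CDH3) for TGF-β in HSF2oe cells, -0.77 to 0.26 (CDH1) and -0.029 to 0.060 (CDH13) for HSF2oe without TGF-β, -0.19 to 0.11 (CTNND1) for HSF2oe with TGF-β, and -0.20 to 4.8e-04 (CDH2), -0.77 to 0.58 (CDH3) and -0.16 to 0.0048 (CTNNA1) for the difference. Depth limits CDH1, CDH3 and CDH4, at 0 to 86 counts per library.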

Other observations

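Neural markers gave values that the comparisons above do not use. Of the 6 tested, 2 were lower in HSF2oe than in Mock cells and 4 did not pass, both without and with TGF-β. The share of all genes lower in HSF2oe cells was 7.22% without and 11.9% with TGF-β. Under library totals alone 1 marker, TUBB3, was called higher in HSF2oe than in Mock cells with TGF-β (0.37, against 0.17 ± 0.12 with TMM). NCAM1, a neural adhesion molecule of the immunoglobulin family, was lower in HSF2oe than in Mock cells both without and with TGF-β (log2 change -1.38 ± 0.14 and -1.49 ± 0.15, adjusted p = 2.22e-04 and 6.16e-05 by the quasi-likelihood test of edgeR), and both calls held without each library. The neuronal microtubule gene MAP2 was lower too, by -1.11 ± 0.21 and -0.90 ± 0.23 (adjusted p = 0.0059 and 0.0149), with adjusted p up to 0.0712 and 0.145 without single libraries.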
